A study of Mus musculus with 3 samples.

Results

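Collagen genes were followed across the supporting tissues and epithelia of the mouse vomeronasal organ (VNO), the pheromone-sensing organ at the base of the nasal septum, in 3 single-cell RNA libraries. The members were all features whose symbol is Col, a number, a and a number, which gave 44 genes of 32285 features. Of these 44, 42 had at least 50 unique molecular identifiers (UMIs, each standing for 1 captured transcript) in at least 1 of 6 cell classes. Col6a5 and Col10a1 stayed below 50 UMIs in every class, with 39 and 31 UMIs over all kept cells.

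The libraries came from male mice on a mixed C57 BL/6J and 129P2/OlaHsd background. Group 1 was a P10 OMPCre heterozygous control, group 2 a P10 OMPCreR26AP2e double heterozygous mutant and group 3 an OMPCreR26AP2e double heterozygous mutant at 3 months. All 3 groups therefore carried OMPCre, and both mutant groups also carried a Rosa26 allele from which Cre releases AP-2ε, encoded by Tfap2e. Omp is a gene of mature chemosensory neurons. Tfap2e itself was also read outside neurons in the mutants: it stood at 1.10, 250 and 78.2 CPM (UMIs per 1000000 UMIs of all genes) in epithelial cells of the P10 control, P10 mutant and 3-month mutant, and at 0.808, 13.8 and 13.5 CPM in immune cells, whose level stands here for free RNA. Epithelial cluster 20, led by Crct1 and Klk10 with Tfap2e among its leading genes, had 2, 220 and 109 cells, and Tfap2e stood at 1056 and 693 CPM in its mutant cells. Fibroblasts, osteoblasts, mural cells, endothelium and glia had 19.4 to 35.6 CPM in the P10 mutant. Each group was 1 library, so no difference between groups could be tested, genotype cannot be told apart from library at P10, and age cannot be told apart from library at 3 months. All intervals given are 95% intervals for counting error only.

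Collagens are triple helices of 3 alpha chains. The fibrillar types (I, II, III, V and XI among them) build the fibres of bone, dermis and cartilage, type IV forms the sheet of basement membranes, type VI makes beaded microfilaments, and FACIT collagens (IX, XII, XIV, XVI and others) sit on fibril surfaces. Multiplexins (XV and XVIII) are basement membrane proteoglycans, type VII anchors epithelia to the stroma beneath, and the transmembrane collagens (XIII, XVII, XXIII and XXV) sit in the cell surface. The VNO is enclosed in a bony capsule and holds a large vein, so osteoblasts, mural cells and endothelium all lie close to its sensory epithelium.

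The P10 control, P10 mutant and 3-month mutant libraries held 8202, 8864 and 10293 barcodes with 83870584, 80760046 and 70074800 UMIs. Barcodes with 200 to 9000 genes and at most 10% mitochondrial UMIs were kept, which left 4795, 3956 and 6960 cells with a median of 10236, 10766.5 and 5010.5 UMIs. Pairs of libraries shared 21 to 30 barcodes, 4 to 9 of them kept. Cell Ranger, the counting software, was version 4.0.0 at P10 and 6.0.1 at 3 months per the file headers, so software and depth differ along with age. Cells were clustered without any collagen gene and named from marker genes as fibroblast-like, osteoblast-like, mural-like, endothelial-like, glia-like and epithelial-like cells, written below without the suffix.

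There were 284, 312 and 595 fibroblasts in the P10 control, P10 mutant and 3-month mutant, 311, 215 and 69 osteoblasts, 214, 115 and 134 mural cells, 162, 221 and 379 endothelial cells, 56, 71 and 172 glia and 1392, 1317 and 1622 epithelial cells. All 10 fixed markers of each of the first 5 classes were detected in that class in every library. Fibroblasts, osteoblasts and epithelial cells were held largely by different clusters at the 2 ages. P10 fibroblasts lay in cluster 9, led by Eln, Igf1 and Mfap4, while 3-month fibroblasts lay in cluster 13, led by Ccl19, Dcn and Apod, and in cluster 34, led by Angptl7, Hhip and Cyp26b1. Osteoblasts fell into cluster 19, led by Mmp13, Spp1 and Sfrp4 and present with 193, 97 and 68 cells, and cluster 23, led by Ibsp and Bglap and present with 118, 118 and 1 cells. Among epithelial cells, cluster 1, led by Rian and B830012L14Rik, had 452, 440 and 2 cells and the basal cluster 3, led by Krt14 and Col17a1, 443, 316 and 18, while the basal cluster 11, led by Vmo1 and Ly6d, had 11, 6 and 493.

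Collagen transcripts were a smaller share of all UMIs at 3 months than at P10 in each of the 6 classes. Osteoblasts held the most: 9.97% of UMIs in the P10 control, 12.9% in the mutant of that age and 2.68% at 3 months. Fibroblasts held 3.02%, 3.12% and 1.26%. Both P10 libraries lay above the 3-month library in these classes, and the P10 libraries differed less from each other than from it. Glia held 0.669%, 0.822% and 0.421%, endothelium 0.637%, 0.526% and 0.145%, and mural cells 0.518%, 0.894% and 0.183%. Epithelial cells were lowest, at 0.0798%, 0.0708% and 0.0323%, against 0.0451%, 0.0554% and 0.00902% in immune cells, which make little fibrillar collagen and serve here as a measure of free RNA. The share in immune cells was itself 0.200 of the control level and 0.163 of the P10 mutant level at 3 months. In bulk summaries of a class such as these, fewer high-collagen cells and less collagen RNA per cell cannot be told apart.

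**Figure D1:**
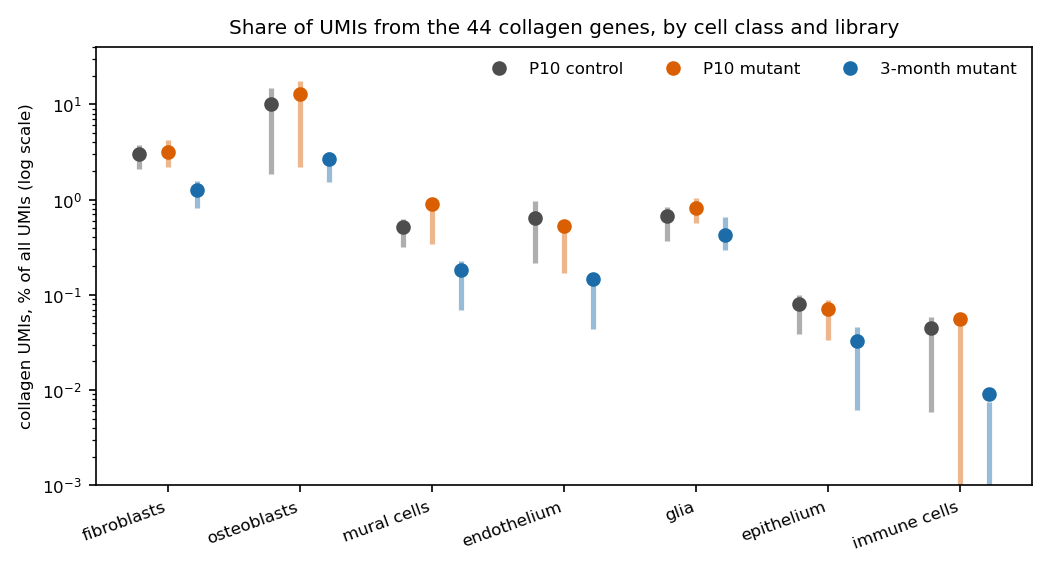
Percent of all UMIs that came from the 44 collagen genes (log axis) in 6 cell classes and in immune cells, for the P10 control, P10 mutant and 3-month mutant libraries. Points are pooled UMIs of all cells of the class and bars run from the lower to the upper quartile over cells, cut at the axis for immune cells. The 3-month point lies below both P10 points in every class.

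The summed collagen level at 3 months was 0.404 of the P10 mutant level in fibroblasts [0.400, 0.407], 0.208 in osteoblasts [0.205, 0.211], 0.205 in mural cells [0.196, 0.214], 0.276 in endothelium [0.267, 0.285], 0.512 in glia [0.493, 0.532] and 0.457 in epithelial cells [0.445, 0.469]. Against the P10 control the values were 0.418, 0.269, 0.354, 0.228, 0.629 and 0.405. Endothelium was the class furthest below the control, and mural cells and osteoblasts the classes furthest below the P10 mutant. Over all alternatives run, each of these ratios stayed below 1, but the osteoblast value was 0.912 and 0.898 within cluster 19 alone, and the epithelial value was 0.734 and 0.598 once the immune level of each gene was subtracted. The study's own mitochondrial limit of 5% left few stromal cells, for example 17, 6 and 24 mural cells. In mural cells of the P10 mutant 1 cell held 39.2% of the Col1a1 and 44.3% of the Col1a2 UMIs. The part of that cell in the mural ratio and its rank was not tested.

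Each class had its own collagen make-up. Fibrillar chains made 97.8%, 98.7% and 88.0% of collagen UMIs in osteoblasts and 74.1%, 74.5% and 58.2% in fibroblasts. Type IV chains made 70.1%, 69.3% and 57.9% in endothelium, and FACIT chains 28.3%, 30.2% and 35.4% in glia. In basal epithelium the transmembrane collagens made 26.5%, 34% and 60.3%. In fibroblasts, endothelium and basal epithelium the fibrillar share was lower at 3 months. The multiplexin share was higher there, at 4.05%, 4.34% and 9.53% of fibroblast collagen and 10.9%, 13.2% and 27.4% of endothelial collagen. Such shares also depend on the level of the other chains. In endothelium neither Col15a1 nor Col18a1 had a higher level at 3 months, and in fibroblasts Col18a1 had but Col15a1 had not. In basal epithelium Col17a1 was not higher in level, while Col23a1 and Col25a1 were.

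**Figure D2:**
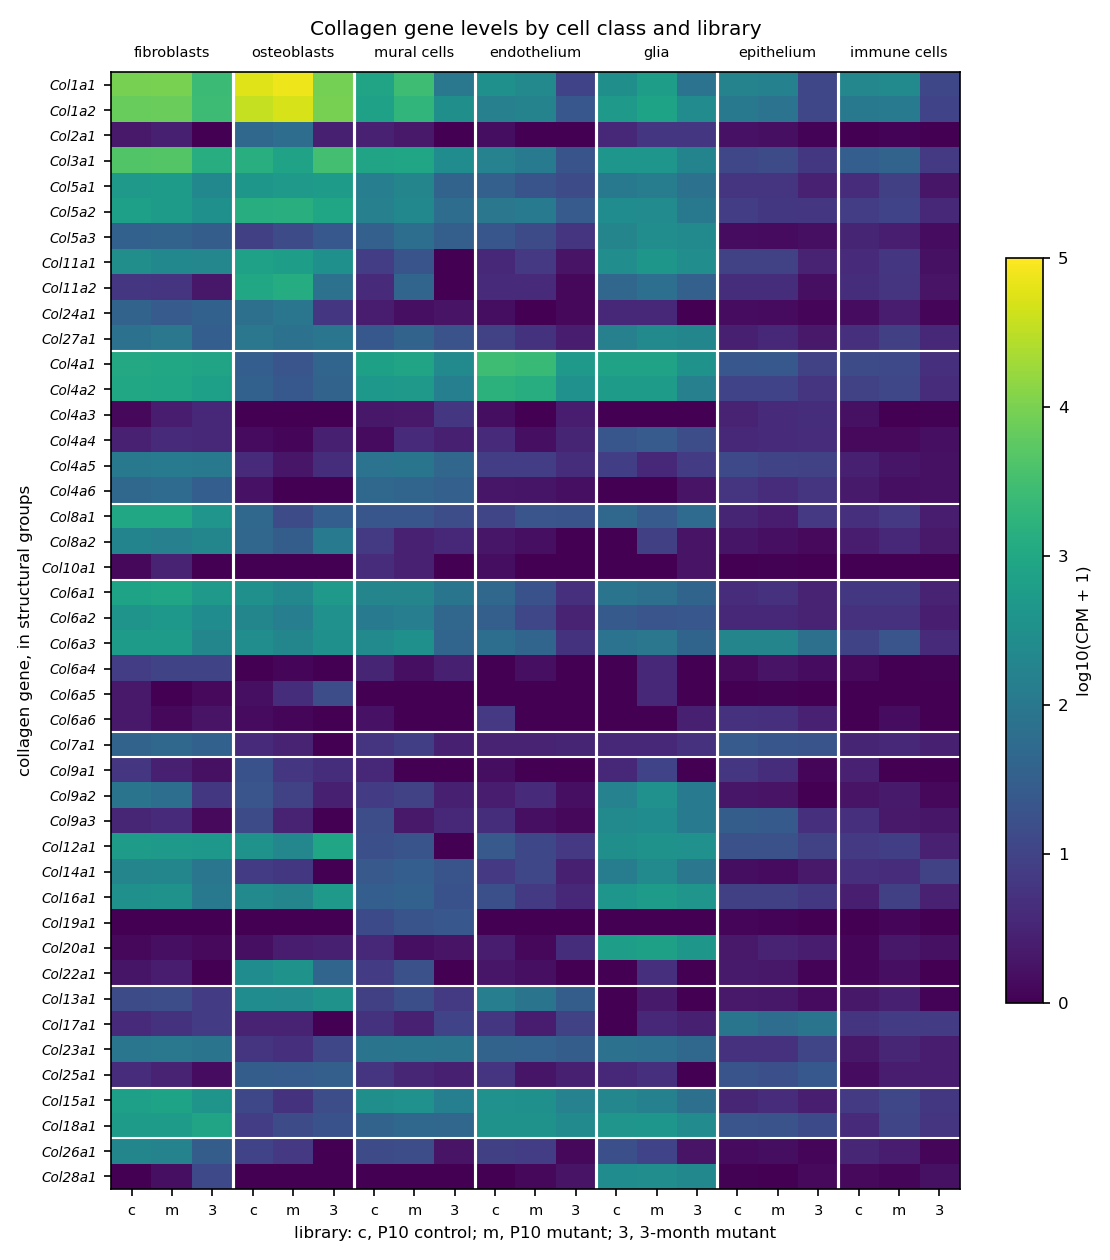
Level of each of the 44 collagen genes, as log10 of CPM (UMIs of the gene per 1000000 UMIs of the class) plus 1, in 6 cell classes and immune cells, with the P10 control (c), P10 mutant (m) and 3-month mutant (3) side by side and genes grouped by structural type. Fibrillar chains fill the osteoblast and fibroblast columns, type IV chains the endothelial columns, and Col20a1 and Col28a1 stand out in glia.

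Levels below are CPM of all UMIs of a class, and since 3′ UMIs count transcripts once, levels of different genes need no scaling by length. A gene is called lower or higher at 3 months where its level differed by 2-fold or more in that direction from both P10 libraries, among genes with at least 50 UMIs in the class over the 3 libraries. Genes that pass this minimum only through the library where they are high had to differ, so the counts describe the members and do not test them.

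In fibroblasts 31 of the 44 genes had 50 UMIs. Of these, 12 were lower at 3 months, against 5.25% of all 11184 features, 1 was higher, against 3.52%, and none differed 2-fold between the P10 mutant and the P10 control, against 3.04%. The median log2 ratio of the 31 genes was -0.83 over the P10 mutant and -0.62 over the control, where the median of all features was -0.17 and -0.19. Most of the 12 were fibril-forming or fibril-associated chains: Col1a1, Col1a2, Col3a1, Col5a1 and Col27a1 are fibrillar, and Col9a2, Col14a1 and Col16a1 are FACIT chains. The others were Col6a3, Col8a1, Col13a1 and Col26a1.

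Col1a1, the major chain of type I collagen, stood at 9623 CPM in the P10 control, 10070 CPM in the P10 mutant and 2519 CPM at 3 months. Its partner chain Col1a2 stood at 6737, 7061 and 2690 CPM. Col3a1, the single chain of type III collagen of compliant tissues, stood at 4403, 4604 and 1283 CPM. All 3 were close between the P10 libraries and low at 3 months, at 0.250 [0.245, 0.255], 0.381 [0.373, 0.389] and 0.279 [0.271, 0.286] of the P10 mutant. The ratios of 2 less abundant genes were lower still. Col9a2, a chain of the FACIT collagen IX of cartilage, stood at 83.9, 63.3 and 5.61 CPM (0.0887 [0.0602, 0.127]). Col26a1 stood at 195, 169 and 28.5 CPM (0.169 [0.142, 0.200]). Both had fewer UMIs at 3 months than at P10 although more fibroblasts were kept.

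The basement membrane genes of fibroblasts differed less. Col4a1 stood at 1044, 978 and 843 CPM (0.862 of the P10 mutant [0.825, 0.901]). Col4a2 stood at 1008, 914 and 677 CPM (0.740 [0.706, 0.775]). Neither was called, and Col4a1 kept most of its P10 level. Of the paired minor chains, Col4a5 stood at 104, 117 and 102 CPM. Its partner Col4a6 stood at 45.9, 55.6 and 29.8 CPM. The multiplexins lay on either side of their P10 levels, neither past 2-fold in both comparisons. Col18a1, the source of endostatin, stood at 557, 551 and 823 CPM (1.49 [1.42, 1.57]). Col15a1 stood at 664, 805 and 378 CPM. The microfilament chains were unequally lower, and Col6a3 alone was called. Col6a1 stood at 803, 906 and 509 CPM, Col6a2 at 379, 457 and 267 CPM, and Col6a3 at 546, 589 and 198 CPM (0.337 [0.314, 0.362]). Col12a1, a FACIT chain of load-bearing tissue, differed little, at 573, 512 and 456 CPM.

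The 1 higher gene was Col28a1, with 0, 2 and 72 UMIs (0, 0.588 and 11.5 CPM), at least 12.5-fold higher than the control and 19.6-fold above the P10 mutant [5.24, 165]. A single cell held 22.2% of its 72 UMIs, and the call was lost at 5% mitochondrial UMIs, with a minimum of 100 UMIs, and in either 3-month cluster alone, where 36 UMIs in each fell short of the minimum but the level was 14.0-fold [3.60, 120] and 33.1-fold [8.51, 283] that of the P10 mutant. Glia had far more Col28a1, at 270, 282 and 216 CPM, and the part of glial RNA in the fibroblast value was not tested. The 10 fibroblast markers summed to 5458, 4888 and 12322 CPM in fibroblasts, highest at 3 months, and the 10 osteoblast markers to 99.6, 111 and 92.1 CPM. With the 3-month cells of cluster 34 alone, Col8a2 and Col18a1 were 2-fold higher instead. Of the 12 lower genes, 11 were also called in cluster 13 alone and 10 in cluster 34 alone.

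In osteoblasts 30 of the 44 genes had 50 UMIs. Of these, 7 were lower at 3 months, against 6.85% of all 9589 features, and 4 were higher, against 9.57%, while 5 differed 2-fold between the P10 libraries, against 2.21%. For the 30 genes the log2 ratio had a median of 0.35 over the P10 mutant and 0.02 over the control, with 0.24 and 0.14 for all features. The lower genes were Col1a1, Col1a2, Col2a1, Col9a2, Col11a2, Col22a1 and Col24a1, and the higher ones Col3a1, Col8a2, Col12a1 and Col16a1. The P10 libraries differed in Col8a1, Col9a1, Col9a2, Col9a3 and Col15a1, and all 5 were lower in the mutant.

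Col1a1 made 56755 CPM in the P10 control, 73316 CPM in the P10 mutant and 9116 CPM at 3 months (0.124 of the P10 mutant [0.121, 0.128]). Col1a2 made 35640, 49007 and 9276 CPM (0.189 [0.184, 0.195]). Type I chains were thus the most abundant collagens of osteoblasts at both ages. Several chains of lower level were further below P10. Col11a2, a type XI chain, had 960, 1237 and 77.0 CPM. Col22a1, a FACIT chain, had 267, 346 and 42 CPM, but 25.9, 42.8 and 40.6 CPM within cluster 19. Col24a1, a fibrillar chain found in developing bone, had 67.6, 90.5 and 5.25 CPM, the last from 3 UMIs (0.0580 [0.0119, 0.171]). The 69 cells at 3 months hold 571663 UMIs, against 5250285 and 4089500 at P10, which limits how low a level can be read. Col2a1, the cartilage fibril chain, had 45.9, 60.2 and 1.75 CPM, the last from 1 UMI (0.0291 [0.000733, 0.164]). In the P10 mutant 1 cell held 33.7% of the Col2a1 UMIs, and the level without it was 40.3 CPM. Col5a2, which regulates fibril width with Col5a1, was not called, at 1322, 1427 and 852 CPM.

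Col3a1 went the other way in osteoblasts, at 1403, 760 and 3240 CPM (4.26 over the P10 mutant [4.02, 4.52] and 2.31 over the control [2.19, 2.43]). Col12a1 had 356, 206 and 855 CPM, but 1 cell held 33.7% of its 3-month UMIs and the level without it was 590 CPM. Col8a2, of the short-chain network type VIII, had 44.6, 29.1 and 119 CPM. Col16a1, a FACIT chain, had 242, 187 and 499 CPM. None of these 4 was called when the mean over cells replaced pooled UMIs, while 8 genes were higher at 5% mitochondrial UMIs. Beside these values, the 10 fibroblast markers summed to 2615, 2219 and 3987 CPM in osteoblasts and the 10 mural markers to 658, 233 and 1671 CPM, with 7 of each 10 detected at 3 months (Mfap5, Clec3b and Pi16, and Kcnj8, Abcc9 and Des, were at 0). Their part in these values was not tested.

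The level of type I collagen depended on the cluster that held the cells. Cluster 23, with 1 cell at 3 months, gave 16.9% and 18.1% of its UMIs to collagen in the P10 control and mutant, while cluster 19 gave 3.01%, 2.96% and 2.70% in the 3 libraries. Within cluster 19, Col1a1 stood at 13008, 14227 and 9191 CPM (0.646 and 0.707 of the P10 mutant and control) and Col1a2 at 9283, 8610 and 9337 CPM (1.08 and 1.01). Col3a1 stood at 2610, 2022 and 3270 CPM there, and Col12a1 at 653, 491 and 863 CPM, so none of the 4 higher genes reached 2-fold. In that cluster 4 genes were lower, Col2a1, Col9a1, Col9a2 and Col26a1, and none was higher. Cluster 2, with 566, 290 and 12 cells of low UMI counts, met the naming rule of no class, and its Col1a1 stood at 10064, 20442 and 1877 CPM. Whether cluster 23 was absent from the 3-month organ or from that library cannot be told apart.

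**Figure D3:**
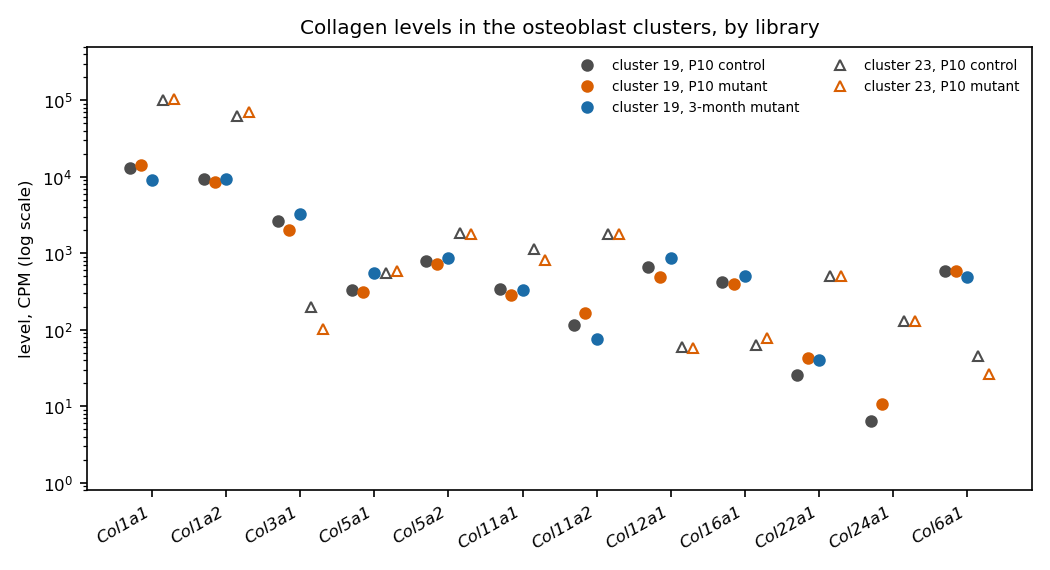
Level of 12 collagen genes (CPM, log axis) in osteoblast cluster 19 (filled circles, 3 libraries) and cluster 23 (open triangles, P10 libraries, since 1 cell was present at 3 months). The circles of the 3 libraries lie close together for Col1a1 and Col1a2, and the triangles lie above them. No circle is drawn for Col24a1 at 3 months, which had at most 3 UMIs in cluster 19.

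Col3a1 was the most abundant member called in opposite directions in fibroblasts and osteoblasts, so its promoter is shown. In RefSeq on GRCm38.p6 the 150 bases before its start lie on the plus strand at chr1:45311388-45311537, just before the GENCODE M21 gene model at 45311538 to 45349706. Capitals mark a TATAAA match.
Col3a1 promoter: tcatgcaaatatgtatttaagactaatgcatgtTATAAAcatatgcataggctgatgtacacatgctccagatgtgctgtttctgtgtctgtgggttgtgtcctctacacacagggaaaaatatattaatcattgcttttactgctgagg
RefSeq promoters matched 35 of the 44 genes. TATAAA on either strand was found in the 150 bases before the start of 4 of these 35 and of 7.57% of 32851 promoters, and CCAAT in 8 of the 35 and 24.5%. These matches describe letters and not bound sites.

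In mural cells 25 of the 44 genes had 50 UMIs. Of these, 13 were lower at 3 months, against 7.81% of all 8822 features, none was higher, against 2.54%, and 3 (Col1a1, Col1a2 and Col11a2) were 2-fold higher in the P10 mutant than in the control, against 2.58% in either direction. The median log2 ratio of the 25 genes was -1.31 over the P10 mutant and -1.08 over the control, with -0.18 and -0.14 for all features. The lower genes included all fibrillar chains with high levels, Col1a1, Col1a2, Col3a1, Col5a1 and Col5a2, the major type IV pair, the 3 main type VI chains, and Col12a1, Col15a1 and Col26a1.

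Col3a1 stood at 834, 862 and 266 CPM (0.309 [0.272, 0.349]) and Col4a1 at 679, 822 and 248 CPM (0.301 [0.264, 0.342]). In both genes the P10 libraries were near each other and the 3-month library was low. Col4a2 stood at 467, 484 and 142 CPM. Col15a1 stood at 303, 337 and 144 CPM. Col6a3 was further down, at 250, 317 and 41.7 CPM (0.131 [0.0960, 0.176]). Col12a1 had 42, 31 and 0 UMIs, at most 0.134 of the P10 mutant counting 3 UMIs for a library at 0. Col26a1 had 35, 23 and 1 UMIs (0.0600 [0.00146, 0.370]). Other genes differed little between the libraries, among them Col18a1 at 38.7, 45.6 and 43.4 CPM and the transmembrane Col23a1 at 82.7, 85.0 and 81.7 CPM. Mural cells were the only class with 50 UMIs of the FACIT chain Col19a1, at 12.4, 19.1 and 21.3 CPM.

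Type I chains separated the P10 libraries in mural cells. Col1a1 stood at 846, 2810 and 99.5 CPM and Col1a2 at 716, 1962 and 303 CPM, and Col11a2 had 8, 68 and 0 UMIs. A single P10 mutant cell held 39.2% of the Col1a1 and 44.3% of the Col1a2 UMIs, and without it the levels were 1743 and 1116 CPM. The 10 osteoblast markers summed to 130, 559 and 98.7 CPM in mural cells, with 9, 9 and 8 of them detected and Mepe at 0 in every library. The 10 fibroblast markers summed to 1152, 1117 and 839 CPM. The part of either list in these values was not tested. The count of lower genes was 6 at 5% mitochondrial UMIs and 8 in cluster 38 alone. Both mural clusters were lower at 3 months: the summed collagen level was 0.225 of the P10 mutant in cluster 17, led by Actg2 and Myh11, and 0.169 in cluster 38, led by Rgs5. The single P10 mutant cell above lay in cluster 17. It held 1790 of the 2649 Col1a1 and 1410 of the 2214 Col1a2 UMIs there, and its part in the 0.225 was not tested. Col4a1 was far higher in cluster 38 (2893, 3443 and 758 CPM) than in cluster 17 (265, 276 and 133 CPM) in each library.

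In endothelium 19 of the 44 genes had 50 UMIs. Of these, 13 were lower at 3 months, against 5.94% of all 10019 features, none was higher, against 3.51%, and 4 (Col6a1, Col6a2, Col12a1 and Col16a1) were 2-fold lower in the P10 mutant than in the P10 control, against 3.39% in either direction. In the control 1 cell held 62.1% of the Col6a1 and 54.8% of the Col6a2 UMIs, and without it the levels were 19.3 and 15 CPM against 17.2 and 10.5 CPM in the P10 mutant, which ends both calls. Of Col12a1 43.5% lay in 1 control cell, and 14.0 CPM remained without it against 11.1 CPM in the mutant, so that call ends as well. In the mutant 1 cell likewise held 42.1%, 31.4% and 35.1% of the 3 genes, and with the leading cell of both libraries left out the levels were 19.3 and 10.1, 15 and 7.32, and 14.0 and 7.28 CPM, of which only Col6a2 was past 2-fold. For the 19 genes the log2 ratio had a median of -1.97 over the P10 mutant and -2.27 over the control, the lowest of the 6 classes, with -0.15 and -0.16 for all features. The 13 were Col1a1, Col1a2, Col3a1, Col5a2, Col5a3, Col4a1, Col4a2, Col6a1, Col6a2, Col6a3, Col13a1, Col14a1 and Col16a1.

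The type IV pair led. Col4a1, which with Col4a2 forms the main basement membrane trimer, stood at 2811 CPM in the P10 control, 2316 CPM in the P10 mutant and 496 CPM at 3 months (0.214 [0.203, 0.226] and 0.176 [0.167, 0.186]). Col4a2 stood at 1643, 1320 and 337 CPM (0.255 [0.239, 0.272] and 0.205 [0.192, 0.219]). Both chains lay well below each P10 library, and the control was above the mutant at P10. The 10 mural markers, all detected in each library, summed to 1127, 765 and 279 CPM in endothelium. They summed to 25601, 23580 and 20224 CPM in mural cells. Col4a1 was lower in mural cells as a whole than in endothelium in each library. In mural cluster 38 it was higher than in endothelium in each library, at 2893, 3443 and 758 CPM. The part of mural cells in the endothelial values was not tested. The multiplexins, which sit in the same basement membrane, differed less and were not called. Col15a1 stood at 333, 316 and 162 CPM (0.511 [0.460, 0.567]). Col18a1 stood at 360, 376 and 236 CPM (0.628 [0.574, 0.687]). The transmembrane Col13a1 stood at 139, 83.9 and 28.9 CPM. Col23a1 stood at 37.8, 35.8 and 29.2 CPM, but 51 of its 100 UMIs at 3 months lay in the 31 cells of cluster 42. In the larger cluster 7 Col23a1 stood at 39.1, 35.9 and 15.6 CPM, and with that cluster alone it was called lower.

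The type IV genes of this pair lie head to head on chromosome 8, Col4a1 on the minus strand at 11198423 to 11312826 and Col4a2 on the plus strand at 11312805 to 11449287 in GENCODE M21 on GRCm38. Their starts are 21 bases apart and the gene models overlap in the stretch shown, chr8:11312805-11312826, given on the plus strand because both chains share it.
Col4a1 and Col4a2 shared start: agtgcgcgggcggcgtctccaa
Col4a3 and Col4a4 start 72 bases apart and Col4a5 and Col4a6 1309 bases apart. The Col4a1 to Col4a2 ratio was above 1 in most classes, at 1.71, 1.75 and 1.47 in endothelium, 1.04, 1.07 and 1.25 in fibroblasts and 1.35, 1.33 and 2.31 in glia.

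At P10 type I transcripts in endothelium lay within 2-fold of the immune level, while Col3a1, Col5a2 and Col6a3 lay more than 2-fold above it. At 3 months Col1a2, Col3a1 and Col5a2 were more than 2-fold above it, and Col1a1 and Col6a3 were not. Col1a1 stood at 327, 229 and 9.33 CPM in endothelium and at 204, 235 and 11.3 CPM in immune cells. Col1a2 stood at 149, 173 and 22.2 CPM against 103, 118 and 8.97 CPM, with 41.7% of the P10 mutant UMIs in 1 cell. Endothelial Col1a1 was therefore no higher than the immune level in the P10 mutant and at 3 months. Col6a3 stood at 62.3, 41.8 and 4.37 CPM against 9.70, 20.1 and 3.13 CPM. Col5a2 stood at 96.6, 111 and 26.5 CPM against 6.95, 9.32 and 2.56 CPM, and Col3a1 at 164, 112 and 18.7 CPM against 29.9, 38.7 and 6.05 CPM. With the immune level subtracted, 11 of the 13 lower calls remained, without Col1a1 and Col16a1, and 8 genes were lower at 5% mitochondrial UMIs.

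In glia 25 of the 44 genes had 50 UMIs. Of these, 8 were lower at 3 months, against 4.02% of all 6290 features, none was higher, against 2.29%, and 1, Col9a2, was 2-fold higher in the P10 mutant than in the control, against 5.99% in either direction. The median log2 ratio of the 25 genes was -0.78 over the P10 mutant and -0.55 over the control, with -0.17 and -0.18 for all features. The 8 were Col1a1, Col3a1, Col5a2, Col4a1, Col4a2, Col6a3, Col9a3 and Col15a1.

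Glia carried a set of FACIT and unusual collagens at high levels. Col20a1 stood at 634, 681 and 433 CPM. Col16a1 stood at 423, 583 and 401 CPM. Col12a1 stood at 313, 356 and 333 CPM, nearly level across the libraries. Col28a1, known from Schwann cell basement membranes, stood at 270, 282 and 216 CPM. These 4 genes were not called at 3 months. The collagen IX chain Col9a2 stood at 160, 338 and 116 CPM, highest in the P10 mutant. Col9a3 stood at 237, 272 and 110 CPM. Col4a1 stood at 744, 765 and 348 CPM (0.454 [0.400, 0.516]). Col4a2 stood at 553, 575 and 151 CPM (0.262 [0.219, 0.313]), so the pair was unequally lower. Col1a2 stood at 504, 783 and 255 CPM. Col5a2 stood at 267, 260 and 106 CPM. Col1a1 stood at 311, 597 and 77.6 CPM, with 58.1% of the P10 mutant UMIs in 1 cell and 256 CPM without it. The 10 fibroblast markers summed to 724, 636 and 1095 CPM in glia, highest at 3 months. The count of lower genes was 4 with the mean over cells and 4 at 5% mitochondrial UMIs.

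In epithelial cells 33 of the 44 genes had 50 UMIs. Of these, 13 were lower at 3 months, against 7.09% of all 14786 features, 3 were higher, against 3.02%, and none differed 2-fold between the P10 libraries, against 4.4%. For the 33 genes the log2 ratio had a median of -0.97 over the P10 mutant and -0.58 over the control, with -0.23 and -0.24 for all features. The 13 were Col1a1, Col1a2, Col3a1, Col5a1, Col11a1, Col11a2, Col4a1, Col6a3, Col6a6, Col9a1, Col9a3, Col13a1 and Col22a1. Without cluster 20, 12 genes were lower and 2 higher, and the summed level was 0.463 of the P10 mutant and 0.408 of the control. Levels were low against free RNA: 33 genes had 10 UMIs in every library, and 11 of them were 2-fold above the immune level in all 3. With the immune level subtracted, 5 genes were lower and 6 higher, and at 5% mitochondrial UMIs 7 were lower and 1 higher.

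Col6a3 was the most abundant epithelial collagen at P10 and second to Col17a1 at 3 months, at 191, 190 and 68.2 CPM against 9.70, 20.1 and 3.13 CPM in immune cells (0.359 of the P10 mutant [0.339, 0.380]). Col1a1 stood at 173, 154 and 10.8 CPM and Col1a2 at 106, 79.5 and 10.5 CPM, and 1 control cell held 32.5% and 43.5% of their UMIs. Both type I chains were near or below the immune level in every library. Col17a1, the hemidesmosome collagen of basal cells, stood at 87.9, 59.2 and 83.5 CPM. It was not called in epithelial cells as a whole. Col9a1 stood at 5.19, 3.54 and 0.204 CPM (0.0574 [0.0182, 0.139]). Col22a1 stood at 1.28, 1.07 and 0.122 CPM, the last from 3 UMIs (0.114 [0.0221, 0.369]). The 3 higher genes were also of low level. Col8a1 stood at 2.23, 1.51 and 5.70 CPM (3.77 [2.62, 5.54]), with 24.3% of its 3-month UMIs in 1 cell. Without that cell its 3-month level was 4.33 CPM, short of 2-fold over the control. Col23a1 stood at 4.20, 4.14 and 10.1 CPM (2.45 [1.94, 3.11]). Col14a1 stood at 0.512, 0.398 and 1.18 CPM (2.96 [1.40, 6.82]). Col14a1 lay below its immune level in every library, at 3.72, 3.30 and 8.62 CPM, with 37.9% of its 3-month UMIs in 1 cell, and its call was lost in 4 of the 7 alternatives to cells and levels. The restricted chains Col4a3 (2.16, 3.15 and 3.58 CPM) and Col4a4 (2.81, 3.15 and 3.30 CPM) passed 50 UMIs in epithelial cells only. At 3 months 73 of the 88 Col4a3 UMIs and 60 of the 81 Col4a4 UMIs lay in the 328 sustentacular cells. That type had 9 and 33 cells at P10, so the even pooled levels come from unlike cells.

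Basal epithelium, the layer that attaches to the basement membrane, numbered 593, 417 and 689 cells, held by clusters 3 and 24 at P10 and clusters 11 and 25 at 3 months. There 22 genes had 50 UMIs, of which 9 were lower at 3 months, against 8.72% of all 12041 features, 1 (Col8a1) was higher, against 1.79%, and 2 (Col1a2 and Col5a1) were 2-fold lower in the P10 mutant, against 2.92% in either direction. For Col1a2 that difference rests on 1 cell, which held 68.4% of the control UMIs, since the control was at 61.0 CPM without it and the mutant at 77.3 CPM. Col5a1 had 66 and 19 UMIs in the P10 libraries, and 5.52 CPM remained in the control without its leading cell against 3.26 CPM in the mutant (2.75 CPM without its own). The median log2 ratio was -0.81 over the P10 mutant and -0.84 over the control, with -0.23 and -0.27 for all features. The 9 were Col1a1, Col1a2, Col5a1, Col11a1, Col11a2, Col4a1, Col4a2, Col6a3 and Col9a3. The collagens that tie basal cells down were not called. Col17a1 stood at 244, 245 and 195 CPM (0.796 [0.743, 0.853]). Col7a1, the anchoring fibril chain, stood at 57.6, 68.0 and 38.5 CPM (0.566 [0.490, 0.653]). Col17a1 was the most abundant collagen of basal cells at 3 months, and immune cells had 4.53, 6.61 and 6.27 CPM of it. The transmembrane Col25a1 stood at 35.3, 29.5 and 50.7 CPM. Col23a1 stood at 10.2, 14.6 and 22.3 CPM, like Col25a1 above the P10 libraries but short of 2-fold over the mutant. Col6a3 was lower in basal cells at 3 months, at 59.3, 63.6 and 5.5 CPM. Most of its P10 UMIs lay in cluster 24, with 477 and 308 UMIs in 92 and 94 cells. Cluster 3 had 88 and 61 UMIs in 443 and 316 cells. At 3 months cluster 24 had 25 cells, and the part of cluster make-up in this difference was not tested. Col9a3 stood at 18.7, 18.9 and 1.43 CPM. Col11a2 stood at 4.76, 4.64 and 0.306 CPM. Col1a1 stood at 268, 142 and 8.25 CPM, near or below its immune level, and 59.4% of the control UMIs lay in 1 cell. Col8a1 stood at 3.42, 2.4 and 7.54 CPM, and its call was lost at Leiden resolution 2 and at 5% mitochondrial UMIs.

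Other epithelia differed in which collagen they carried. Gland and secretory cells (197, 144 and 262 cells) carried collagen IX at P10. Their Col9a3 stood at 129, 172 and 15.1 CPM. Their Col9a1 stood at 31.7, 30.3 and 0.269 CPM, the last from 1 UMI (0.00888 [0.000222, 0.0509]). Within gland cluster 12, present in all 3 libraries, Col9a3 stood at 129, 172 and 15.4 CPM, so the difference was as large in 1 cluster. Gland Col25a1 stood at 31.4, 58.3 and 11.8 CPM and gland Col11a1 at 11.7, 12.1 and 0.806 CPM. The median gland cell held 14888, 15794.5 and 1614.5 UMIs, and the median cell of cluster 12 held 14814.5, 15794.5 and 7939, and the part of depth in these values was not tested.

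Sustentacular cells, the supporting cells of the sensory epithelium, numbered 9, 33 and 328. At Leiden resolution 2 the P10 libraries kept 2 and 1 cells in the sustentacular cluster, so the name of the P10 cells depends on the clustering. Their Col6a3 had 7, 44 and 1312 UMIs (315, 587 and 231 CPM), and type VI chains made 72.6% of their collagen UMIs at 3 months. All P10 values of these cells rest on 22201 and 74907 UMIs in total and cannot be weighed against the 5690619 UMIs at 3 months. This holds for Col6a6 (0, 93.4 and 7.73 CPM), Col1a1 (180, 561 and 4.39 CPM) and Col1a2 (135, 427 and 5.62 CPM). The other epithelium, with 538, 712 and 168 cells, lay mostly in cluster 1 at P10 and in cluster 20 at 3 months. There Col6a3 stood at 348, 262 and 82.5 CPM and the related Col6a6 at 8.05, 5.20 and 0.900 CPM. Col4a1 stood at 28.4, 25.9 and 9.0 CPM and Col11a2 at 2.79, 3.24 and 0.30 CPM. Within cluster 20, which held cells of both mutant libraries, Col6a3 stood at 144 CPM at P10 and 123 CPM at 3 months (0.854 [0.736, 0.989]). Ciliated cells (19, 11 and 48) had 2 genes with 50 UMIs, Col1a1 at 93.4, 21.2 and 94.4 CPM and Col1a2 at 13.9, 12.7 and 64.0 CPM, but 39 of the 40 UMIs of Col1a2 at 3 months lay in 1 cell.

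Set side by side, Col1a1 was lower at 3 months in all 6 classes, and Col1a2, Col3a1 and Col6a3 in 5 of 6. Endothelial and epithelial Col1a1 lay near or below its immune level at 3 months, the endothelial call ended with that level subtracted, and Col1a1 was not called within osteoblast cluster 19. These 4 were among 16 genes with 50 UMIs in every class. In all, 28 genes were lower in at least 1 class and 8 were higher in at least 1, 5 of them both (Col3a1, Col8a1, Col12a1, Col14a1 and Col16a1), while 11 had 50 UMIs somewhere and were never called. The shares over all features given above are per class. No such count over the classes together stands beside these numbers, so they describe the members only. The classes share libraries and free RNA, so their counts are not independent of each other. Col18a1 had 50 UMIs in all 6 classes and was called in none.

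**Figure D4:**
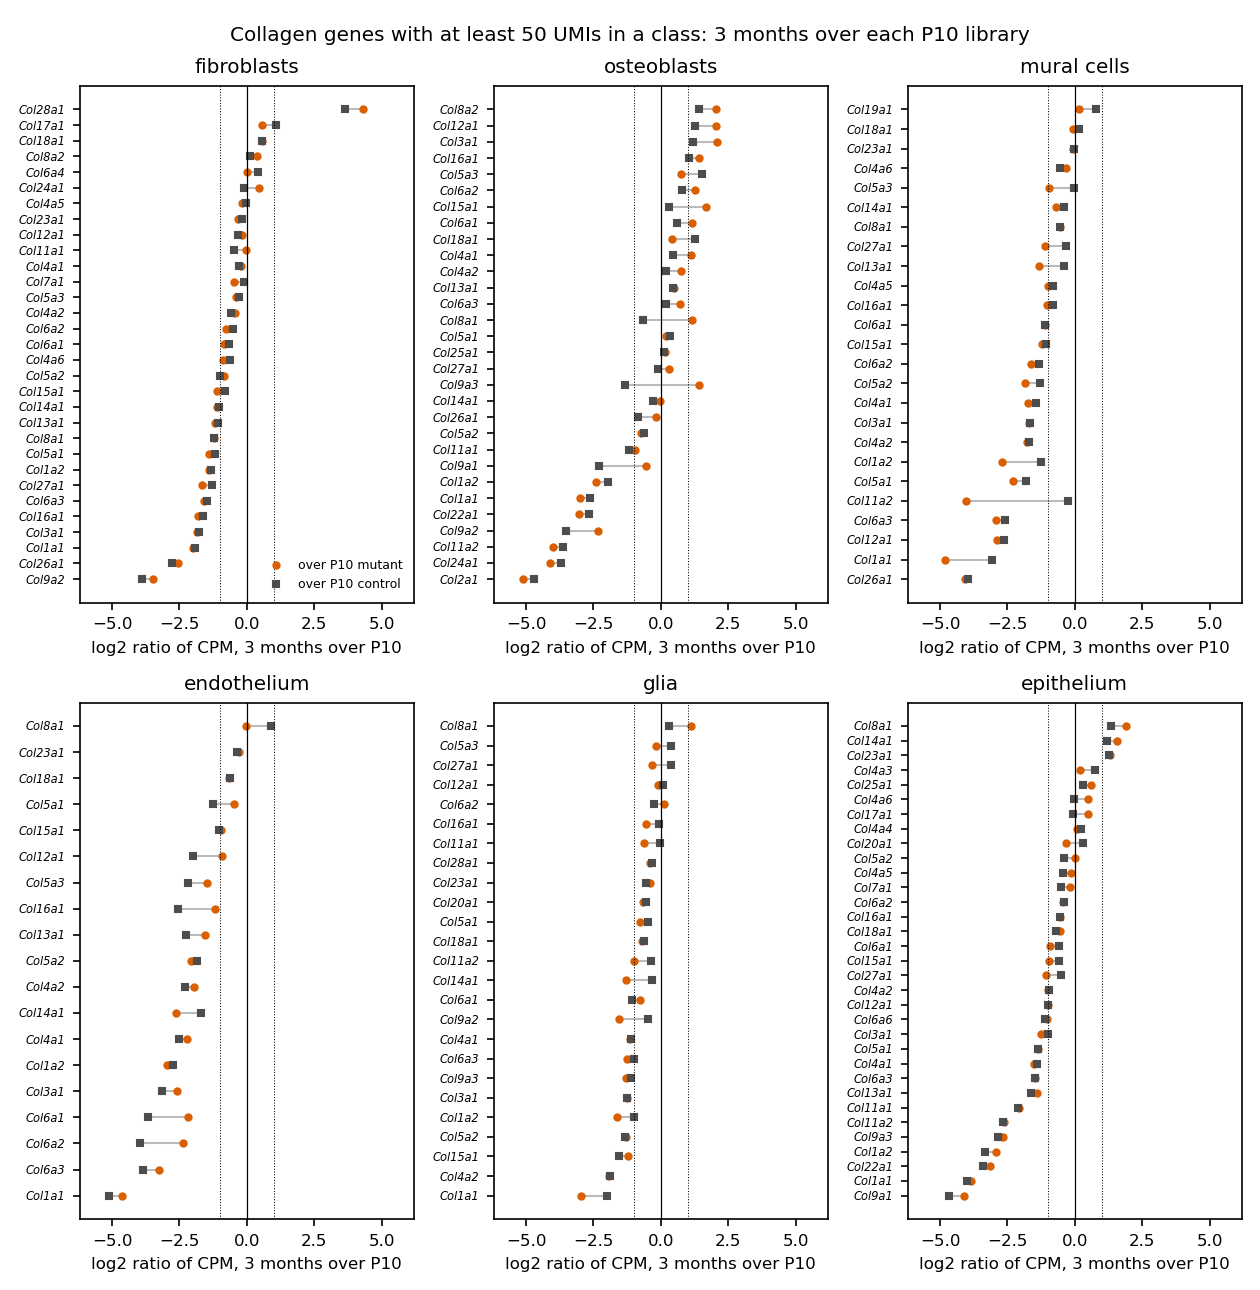
Log2 ratio of the 3-month level over the P10 mutant (circles) and over the P10 control (squares) for each collagen gene with at least 50 UMIs in a class, by class. Dotted lines mark 2-fold in each direction and genes with 0 UMIs in a library sit at their bound. Most endothelial and mural points lie below 0, and osteoblast points lie on both sides.

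Chains that share a trimer were compared within a library. Type I collagen is usually a trimer of a pair of alpha-1 chains with 1 alpha-2 chain. The Col1a1 to Col1a2 ratio in fibroblasts was 1.43 in both P10 libraries ([1.40, 1.45] in each) and 0.936 at 3 months [0.916, 0.957]. It was 0.823 in cluster 13 and 1.16 in cluster 34, both below the P10 value. In osteoblasts it was 1.59, 1.50 and 0.983, and within cluster 19 it was 1.40 [1.38, 1.42], 1.65 [1.62, 1.69] and 0.984 [0.947, 1.02]. In mural cells it was 1.18, 1.43 and 0.329 and in glia 0.616, 0.762 and 0.304. Without the cell with most Col1a1 UMIs in each library the mural ratios were 1.12, 1.56 and 0.224 and the glial ones 0.582, 0.423 and 0.282. The ratio was lower at 3 months in every one of these classes, and it was also lower in immune cells, at 1.97, 1.99 and 1.26.

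The type VI chains were unequal in epithelium. In textbook type VI collagen the alpha-3 chain joins the alpha-1 and alpha-2 chains. The Col6a3 to Col6a1 ratio was 58.1 [47.1, 72.3], 45.9 [37.8, 56.2] and 31 [23.7, 41.5] in epithelial cells, but 0.680, 0.650 and 0.390 in fibroblasts, 0.880, 0.909 and 0.673 in osteoblasts and 1.76, 3.70 and 1.42 in immune cells. Epithelial Col6a3 thus came almost without Col6a1, which stood at 3.29, 4.14 and 2.20 CPM. The ratio was 125 and 152 in cluster 1 at P10 and 328 in sustentacular cells at 3 months, from 4 UMIs of Col6a1 [128, 1206]. It was 18.5, 19.5 and 2.70 in basal epithelium, where the P10 values differed by cluster. They were 7.33 and 4.07 in cluster 3 and 68.1 and 77 in cluster 24. Epithelial Col6a1 and Col6a2 were near each other, with a ratio of 1.22, 1.51 and 1.08.

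**Figure D5:**
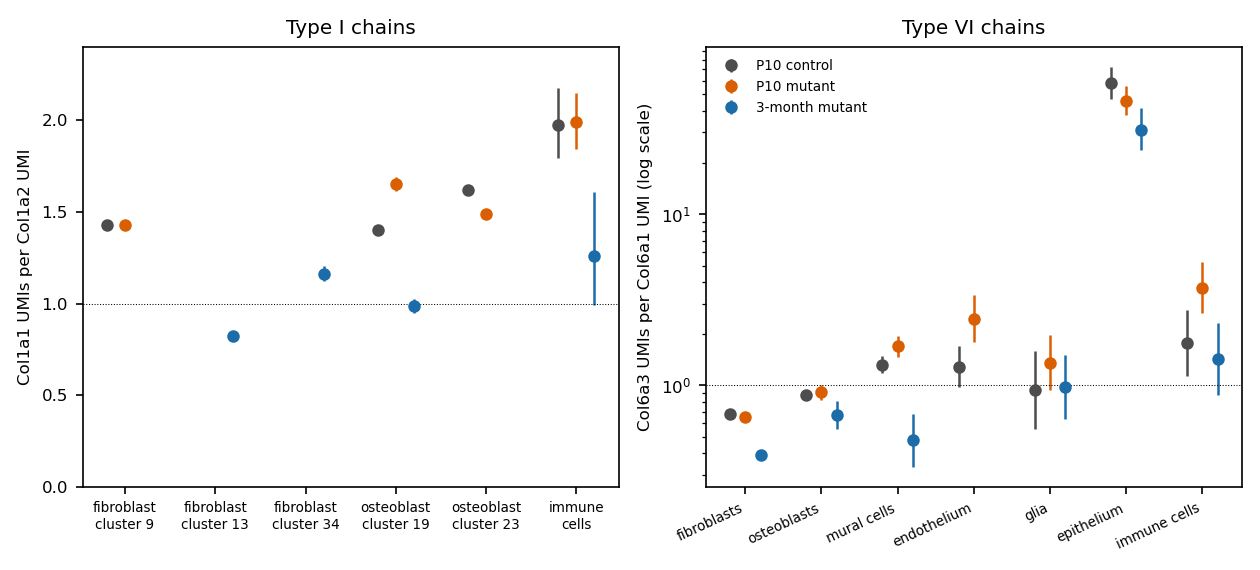
Ratio of Col1a1 to Col1a2 UMIs by fibroblast and osteoblast cluster and in immune cells, and of Col6a3 to Col6a1 UMIs by class on a log axis, in the P10 control, P10 mutant and 3-month mutant. Bars are 95% counting intervals, and ratios of few UMIs or cells, such as endothelium at 3 months, are not drawn. The type I ratio is near 1 or below at 3 months in most clusters, and the type VI ratio is above 30 only in epithelium.

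A list of 51 genes that act on collagen was followed alongside, covering chain modification and folding, secretion and processing, crosslinking, turnover and receptors. Serpinh1, which encodes the collagen chaperone HSP47, and Fkbp10, a prolyl isomerase of the same compartment, were lower at 3 months in all 6 classes. In osteoblasts they were not both called within the cluster that held nearly all 3-month cells, as given below. Serpinh1 stood at 1421, 1313 and 639 CPM in fibroblasts, 684, 597 and 182 CPM in endothelium and 762, 720 and 189 CPM in glia. Fkbp10 stood at 171, 177 and 58.8 CPM in fibroblasts, 145, 117 and 34.7 CPM in endothelium and 120, 129 and 45.2 CPM in glia. With 50 UMIs as the minimum, 9 of 40 tested genes were lower and 0 higher in fibroblasts, against 5.25% and 3.52% of all features. In mural cells 15 of 36 were lower and 1 higher, against 7.81% and 2.54%, and in endothelium 11 of 35 and 0, against 5.94% and 3.51%. Glia had 5 of 31 lower and 0 higher, against 4.02% and 2.29%, and epithelial cells 7 of 40 and 1, against 7.09% and 3.02%.

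In fibroblasts the crosslinking enzyme Lox stood at 1213, 1236 and 302 CPM (0.244 of the P10 mutant) and the prolyl hydroxylase subunit P4ha3 at 30.2, 19.7 and 6.25 CPM. None of the 8 turnover genes with 50 UMIs was called there. In mural cells all 4 crosslinking genes with 50 UMIs were lower (Lox, Loxl1, Loxl2 and Loxl3). The lysyl hydroxylase Plod2 stood at 31.6, 45 and 5.11 CPM there. The collagenase Mmp13, also an osteoblast gene, stood at 65.0, 98.0 and 2.55 CPM. The 1 higher gene was Timp3, an inhibitor of matrix proteases, at 618, 758 and 1723 CPM. Endothelial Bmp1, a procollagen protease, stood at 60.8, 52.1 and 15.5 CPM. Glial Mmp2, a gelatinase, stood at 163, 190 and 58.0 CPM. In epithelial cells Mmp13 (5.66, 9.71 and 0.692 CPM) and P4ha3 (3.00, 2.39 and 0.366 CPM) were lower and P3h2, a prolyl 3-hydroxylase, was higher (0.950, 0.876 and 2.56 CPM).

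In osteoblasts 9 of 41 tested pathway genes were lower and 8 higher, against 6.85% and 9.57% of all features. Pcolce2, an enhancer of procollagen processing, stood at 44.2, 44.5 and 0 CPM and the collagen receptor Ddr1 at 11.4, 10.3 and 1.75 CPM. The higher genes included 5 of 8 turnover genes, namely Mmp2, Mmp13, Mmp14, Timp2 and Timp3. Mmp13 stood at 1598, 1229 and 3773 CPM and Timp3 at 702, 677 and 2115 CPM. The collagen-binding integrin Itga11 stood at 38.1, 23 and 119 CPM. Within cluster 19 alone 1 pathway gene was lower and 1 higher, so Serpinh1 and Fkbp10 were not both called lower there.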

How the data were processed

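VNO cells were dissociated with papain and collagenase A, cryopreserved and run as 10x 3′ libraries. The deposited files hold raw UMI counts per gene and barcode, made by the authors with Cell Ranger on mm10, version 4.0.0 for the P10 libraries and 6.0.1 for the 3-month library per the file headers. The submitters' processing notes name bcl2fastq, Cell Ranger 4.0.0, Seurat 3.2.3 and mm10 for all 3. Groups came from the labels. The study's own account covers the P10 control library, and its 5% mitochondrial limit was run as an alternative. The number of animals in a library is not given in the sources used here.

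Barcodes with 200 to 9000 genes and at most 10% mitochondrial UMIs were kept. Collagen and collagen pathway genes were left out of the clustering. Genes in at least 3 cells were normalised to 10000 UMIs, and 2000 variable genes, 30 principal components, 20 neighbours and Leiden resolution 1 (alternatively 2) were used with scanpy 1.11.5, leidenalg 0.10.2, Python 3.11.15, numpy 2.4.6, scipy 1.17.1, pandas 2.3.3 and matplotlib 3.10.9. A cluster was named where at least 3 of its markers had 10 UMIs and stood 2-fold above the median of all clusters. The mean log2 ratio of its markers over the other cells, its score, had to reach 0.7 and lead other classes by 0.5. Its leading genes could not hold more markers of another class than of its own. The score thresholds were set after the clusters were seen. Clusters of low UMI counts without their markers among the leading genes stayed unnamed. Immune cells (698, 947 and 1952) were the neutrophil, macrophage and monocyte, dendritic, T and NK and B clusters. Scrublet marked 0, 0 and 1 barcodes as doublets, which is too few to rely on, so none were removed, and leaving out the 538, 629 and 848 barcodes of highest score (0.8% per 1000 barcodes) was an alternative.

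Levels are pooled UMIs of a gene per 1000000 UMIs of a class (CPM). Intervals are exact Poisson for levels, Clopper-Pearson for shares and conditional binomial for ratios, at 95%. A library at 0 was set to 3 UMIs for a bound. With 1 library a group no test was made. The 2-fold calls and intervals were checked on simulated counts that held counting error only. Spread between cells, clusters and libraries was not simulated, so that check does not cover it. The members and lists were chosen with earlier results of these data known. Named were, per class, the 4 genes of highest mean level, the 3 called genes of largest ratio in each direction, the head-to-head type IV pairs, the type VI chains and 2 pathway genes per direction, and the same for epithelial subclasses. Other members were named because they were called or to account for all members, after their values were seen.

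Alternatives were a mitochondrial limit of 5%, at least 500 genes, doublet scores, the mean over cells, the immune level subtracted, Leiden resolution 2, a reduced denominator, minimum counts of 20, 100 and 1 UMI, single clusters and leaving out the cell with most UMIs of a gene. Gene positions are GENCODE M21 on GRCm38 and promoters RefSeq on GRCm38.p6.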

Additional observations from a re-analysis of the deposited data

Results flagged for a closer look

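In all, 5 members were called at 3 months in opposite directions in different classes, given here as the level over the P10 mutant. Col3a1 was at 0.279 in fibroblasts and 4.26 in osteoblasts, and Col16a1 at 0.287 and 2.67 in the same classes. Col12a1 was at most 0.134 in mural cells, where the 3-month library had 0 UMIs, and at 4.15 in osteoblasts. Col14a1 was at 0.471 in fibroblasts and 2.96 in epithelial cells, and Col8a1 at 0.426 and 3.77. In epithelial cells 1 cell held 37.9% of the 3-month Col14a1 UMIs and 1 cell 24.3% of those of Col8a1. Without these cells the levels were 0.734 and 4.33 CPM, short of 2-fold over the P10 control (0.512 and 2.23 CPM). Epithelial Col14a1 also lay below its immune level in every library. Within cluster 19, which held 68 of the 69 osteoblasts at 3 months, Col3a1 was at 1.62 of the P10 mutant, and none of Col3a1, Col12a1 and Col16a1 reached 2-fold there or was called in osteoblasts with the mean over cells. The difference between classes was not tested in any of the 5, since each group was 1 library.

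Cluster 2 belonged to no class and held cartilage collagen UMIs in the P10 control. It held 566, 290 and 12 cells with a median of 1075, 1306.5 and 2062 UMIs and was led by Cytl1, Snorc, Col2a1 and Acan. Col2a1 stood at 279 CPM in the control and 18.6 CPM in the P10 mutant, and Col9a1, a FACIT chain of cartilage, at 132 CPM in the control with 0 UMIs in the mutant. The 280 control UMIs of Col2a1 came from 4 cells, 143 of them from 1 cell, and the 133 UMIs of Col9a1 from 4 cells, 77 of them from 1. Acan, the cartilage proteoglycan, had 178 UMIs in 8 cells, 119 of them in 1. Of all 908 Col2a1 UMIs in kept cells, 41.9% lay in osteoblast cluster 23, 32.0% in cluster 2 and 11.9% in osteoblast cluster 19.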

How the results depend on the processing

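No paired analysis was possible because each group has 1 library. No direction of a summed collagen ratio turned under any alternative run, and requiring 500 genes per barcode moved no result beyond counting error or 1.5 times a count. Shares below are percent of UMIs and, like ratios of chains, stand in the order P10 control, P10 mutant and 3 months where 3 are given. Summed ratios are 3 months over the P10 mutant and then over the control where both moved. The cause of a change was not tested unless stated.

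With a mitochondrial limit of 5%, which leaves fewer cells, the collagen share was 3.11%, 2.85% and 1.30% in fibroblasts, 11.9%, 16.6% and 2.80% in osteoblasts, 0.694%, 3.81% and 0.264% in mural cells, 0.531%, 0.471% and 0.151% in endothelium, 0.620%, 0.908% and 0.477% in glia and 0.0676%, 0.0500% and 0.0305% in epithelial cells. The mural P10 mutant value rests on 6 cells. The summed ratio was 0.456 in fibroblasts (over the mutant), 0.168 and 0.235 in osteoblasts, 0.0693 and 0.381 in mural cells, 0.322 and 0.285 in endothelium, 0.769 in glia (over the control), 0.610 and 0.451 in epithelial cells and 0.579 and 0.551 in basal epithelium. Higher genes numbered 0 in fibroblasts, 8 in osteoblasts, 1 in epithelial cells and 0 in basal epithelium, and lower genes 6 in mural cells, 8 in endothelium, 4 in glia and 7 in epithelial cells. Pathway genes higher numbered 1 in fibroblasts and 0 in mural, epithelial and basal cells, and those lower 4 in mural cells, 7 in endothelium, 3 in glia, 4 in epithelial cells and 3 in basal epithelium. The Col1a1 to Col1a2 ratio was 1.35, 1.23 and 0.877 in fibroblasts and 1.44, 1.35 and 0.908 in osteoblasts, and epithelial Col6a3 to Col6a1 was 37.7, 62.0 and 6.60.

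With the highest doublet scores left out, the share was 3.11%, 3.30% and 1.34% in fibroblasts, 10.3% and 13% in P10 osteoblasts, 0.560%, 1.07% and 0.202% in mural cells, 0.512% and 0.126% in mutant endothelium at P10 and 3 months and 0.0767%, 0.0662% and 0.0300% in epithelial cells. The summed ratio was 0.204 and 0.260 in osteoblasts, 0.188 in mural cells (over the mutant) and 0.246 and 0.195 in endothelium, and over the control 0.432 in fibroblasts, 0.391 in epithelial cells and 0.390 in basal epithelium. Epithelial Col6a3 to Col6a1 was 74.7, 63.5 and 41.9.

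With the mean over cells, the share was 3.14%, 3.42% and 1.22% in fibroblasts, 8.51%, 11% and 2.46% in osteoblasts, 0.560%, 0.803% and 0.208% in mural cells, 0.476% and 0.120% in mutant endothelium at P10 and 3 months, 0.702%, 0.901% and 0.517% in glia and 0.103%, 0.0996% and 0.0368% in epithelial cells. The summed ratio was 0.357 and 0.389 in fibroblasts, 0.223 and 0.289 in osteoblasts, 0.259 and 0.372 in mural cells, 0.253 and 0.188 in endothelium, 0.574 and 0.736 in glia, 0.369 and 0.356 in epithelial cells and 0.416 and 0.385 in basal epithelium. Osteoblasts had 0 collagen and 4 pathway genes higher, and glia 4 collagen and 3 pathway genes lower.

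With the immune level subtracted, the share was 2.97%, 3.07% and 1.25% in fibroblasts, 9.92% and 12.8% in P10 osteoblasts, 0.473%, 0.840% and 0.175% in mural cells, 0.592%, 0.473% and 0.137% in endothelium, 0.625% and 0.767% in P10 glia and 0.0416%, 0.0339% and 0.0249% in epithelial cells. The summed ratio was 0.408 in fibroblasts and 0.290 in endothelium (over the mutant), 0.538 and 0.661 in glia, 0.734 and 0.598 in epithelial cells and 0.740 and 0.548 in basal epithelium. Lower genes numbered 5 in epithelial cells and 4 in basal epithelium, and 6 were higher in epithelial cells. Pathway genes numbered 8 lower in glia and 3 higher in both epithelial and basal cells.

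At Leiden resolution 2 the share was 2.86% in control fibroblasts and 11.2% and 13.5% in P10 osteoblasts. The summed ratio was 0.441 in fibroblasts (over the control), 0.200 and 0.240 in osteoblasts and 0.483 and 0.506 in basal epithelium, where 0 genes were higher. Col1a1 to Col1a2 in the control was 1.39 in fibroblasts and 1.60 in osteoblasts. With collagen, mitochondrial, haemoglobin, Malat1 and Gm42418 UMIs left out of the denominator, which raises every share, it was 3.46%, 3.65% and 1.47% in fibroblasts, 12.1%, 16.1% and 3.18% in osteoblasts, 0.579%, 1.01% and 0.219% in mural cells, 0.692%, 0.572% and 0.162% in endothelium, 0.743%, 0.922% and 0.510% in glia and 0.0877%, 0.0790% and 0.0362% in epithelial cells. The summed ratio was 0.426 in fibroblasts (over the control), 0.197 and 0.263 in osteoblasts, 0.217 and 0.378 in mural cells and 0.553 and 0.686 in glia, where 5 genes were lower.

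Of the minimum counts, at least 100 UMIs gave 0 higher genes in fibroblasts, and at least 20 UMIs gave 1 in mural cells and 2 in basal epithelium. With no minimum beyond 1 UMI, 11 genes were higher in osteoblasts, 2 in mural cells, 1 in endothelium and 3 in basal epithelium, and 13 were lower in glia and 14 in basal epithelium, because genes of few UMIs entered.

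The following were chosen after seeing the data, as were all values above for pathway genes, chain ratios and basal epithelium. Fibroblasts of cluster 13 alone at 3 months gave summed ratios of 0.364 and 0.377 and 0 higher genes, and those of cluster 34 alone 0.491 and 0.512, 2 higher collagen genes and 2 higher pathway genes. Osteoblasts of cluster 19 alone gave 0.912 and 0.898, with 4 lower and 0 higher collagen genes and 1 pathway gene in each direction. The smooth-muscle cluster 17 alone gave 0.225 and 0.331 with 0 higher pathway genes, and the pericyte cluster 38 alone 0.169 and 0.377 with 8 collagen and 5 pathway genes lower. Epithelial cells without cluster 20 gave 0.463 and 0.408. Without the cell with most Col1a1 UMIs, the P10 mutant osteoblast ratio of Col1a1 to Col1a2 was 1.51. Of the levels of named genes, 160 moved beyond counting error and 71 did not at 5% mitochondrial UMIs, and 23 moved and 54 did not without the cell holding most UMIs of the gene.

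With 1 library a group, intervals cover counting error only, and depth, Cell Ranger version and cluster make-up differ together with age. The fewest cells were in osteoblasts at 3 months (69) and glia of the control (56), where 1 cell could hold much of a gene. A level of 0 allows up to 3 UMIs. Names of cell classes were rebuilt from markers, so shares depend on them.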

Other observations

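In cluster 2 the levels of type I collagen and bone genes lay above those of immune cells in each library. Col1a1 had a UMI in 88.7% of its 566 P10 control cells and 77.2% of its 290 P10 mutant cells, where the median cell held 1075 and 1306.5 UMIs, against 58.6% and 44.4% of immune cells with a median of 5527.5 and 4815 UMIs. Its level was 10064, 20442 and 1877 CPM against 204, 235 and 11.3 CPM, and Col1a2 stood at 3878, 9514 and 715 CPM in the 3 libraries against 103, 118 and 8.97 CPM. Ibsp, a bone sialoprotein gene, stood at 1435, 1626 and 223 CPM against 14.6, 17.8 and 0.783 CPM, and Bglap, which encodes osteocalcin, at 946, 2384 and 447 CPM against 18.8, 9.44 and 0.854 CPM. The 3-month values rest on 12 cells. Col11a2 stood at 259 CPM in the control, 472 CPM in the P10 mutant and 89.4 CPM at 3 months, the last from 2 UMIs. The other collagen IX chains, Col9a2 and Col9a3, stood at 253 and 285 CPM in the control and 6.77 and 11.8 CPM in the P10 mutant, and 1 control cell held 146 of 254 and 171 of 286 of their UMIs.

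Cluster 31, also in no class and led by Olfr878 and vomeronasal receptor genes, had Col1a1 at 17357 CPM in the P10 control, where 1 of 83 cells held 4710 of 7155 UMIs, at 194 CPM in the P10 mutant and at 33.6 CPM at 3 months. Of the 2 members below 50 UMIs in every class, Col6a5 had 19 of its 39 UMIs in osteoblast cluster 19 and Col10a1 had 10 of its 31 in mural cluster 17.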
